A study of Homo sapiens with 95 samples.

Results

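The benzo[a]pyrene (BaP) response of NRG1 cells was examined in 6 wells of AALE cells, an immortalized human bronchial epithelial line. All 6 wells carried the overexpression of NRG1, which encodes the ERBB ligand neuregulin. In 3 wells the medium held BaP at 173 µM, and in 3 wells it held the solvent DMSO. These 6 wells were chosen by their titles from 95 wells of 8 cell populations and 4 chemicals. The other populations used here for comparison were cells overexpressing NRF2 (gene NFE2L2) or PIK3CA, cells with a CRISPR knockout of FAT1, and GFP cells, which had received the Cas9 plasmid without a guide. Cells were grown to confluency in 24-well plates before exposure, and the length of the exposure is not given in the sources used here. The labels name neither the promoter of the NRG1 construct nor whether the cells came from a single clone. The study counts the wells of a condition as biological replicates, while the sources used here do not describe how their cultures were kept apart. P-values set a change against the spread between these wells, estimated largely from all genes together.

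RNA was measured by 3′ digital gene expression (3′DGE), which reads the 3′ ends of polyadenylated transcripts and counts unique molecular identifiers (UMIs), so that copies of one captured molecule count once. Levels are given as CPM, counts scaled to a common library total, with TMM factors that align the bulk of genes between wells. A gene was tested if its mean count in the 6 wells was above 1, which 11176 of 23895 listed genes were. Genes were called at a Benjamini-Hochberg adjusted p below 0.05 in limma with voom weights, two-sided.

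BaP is a polycyclic aromatic hydrocarbon of tobacco smoke and soot. It binds the aryl hydrocarbon receptor (AHR), which enters the nucleus, pairs with ARNT and turns on genes such as CYP1A1 and CYP1B1. The enzymes these genes encode oxidise BaP to diol epoxides that form bulky adducts on DNA. Quinones and oxidants made on the way release NRF2 from KEAP1, and NRF2 turns on genes for antioxidant and conjugating enzymes. The ERBB receptors, to which neuregulin, amphiregulin and epiregulin bind, signal through ERK to immediate early genes.

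Upstream sequences of 4 genes with higher counts under BaP are shown because the letters bound by AHR with ARNT (GCGTG) and by NRF2 with a small MAF protein (TGACNNNGC) can be seen in them. The 1500 bases before the start of each canonical transcript were searched on both strands, and the window with the most matches was taken. Sequences are from the GRCh37 (hg19) reference, on the strand of the gene, 5′ to 3′, with matches to either strand of the motif in capitals. The CYP1A1 window (chr15:75018842-75019141, minus strand) ran from 1272 to 973 bases before the start. The CYP1B1 window (chr2:38304072-38304371, minus strand) ran from 1078 to 779 bases before the start, within an intron of a longer CYP1B1 transcript model. The TIPARP window (chr3:156391998-156392297, plus strand) ran from 381 to 82 bases before the start, within an intron of a longer TIPARP model and across an exon of the antisense gene TIPARP-AS1. The NQO1 window (chr16:69760884-69760943, minus strand) ran from 480 to 421 bases before the start and overlapped an exon of the divergent gene NQO1-DT.
CYP1A1: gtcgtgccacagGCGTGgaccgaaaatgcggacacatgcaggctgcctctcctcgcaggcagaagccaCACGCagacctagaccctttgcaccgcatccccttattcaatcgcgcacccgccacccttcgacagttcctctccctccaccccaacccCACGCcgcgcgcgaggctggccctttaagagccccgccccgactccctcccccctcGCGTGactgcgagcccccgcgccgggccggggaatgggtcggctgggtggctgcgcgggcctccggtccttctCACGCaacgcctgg
CYP1B1: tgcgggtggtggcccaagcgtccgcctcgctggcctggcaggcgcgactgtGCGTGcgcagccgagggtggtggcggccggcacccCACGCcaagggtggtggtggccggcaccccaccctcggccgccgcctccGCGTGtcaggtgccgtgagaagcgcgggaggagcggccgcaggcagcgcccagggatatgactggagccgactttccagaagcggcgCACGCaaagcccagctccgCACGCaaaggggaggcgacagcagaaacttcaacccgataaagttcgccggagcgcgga
TIPARP: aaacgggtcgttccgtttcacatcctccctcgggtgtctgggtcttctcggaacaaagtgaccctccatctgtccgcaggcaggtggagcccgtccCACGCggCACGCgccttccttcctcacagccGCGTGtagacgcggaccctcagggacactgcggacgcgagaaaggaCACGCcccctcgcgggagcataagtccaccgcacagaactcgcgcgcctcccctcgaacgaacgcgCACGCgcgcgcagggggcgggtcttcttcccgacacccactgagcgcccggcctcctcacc
NQO1: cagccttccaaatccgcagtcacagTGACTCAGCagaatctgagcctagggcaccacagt

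The first 3 windows held 5 matches each to GCGTG, and the NQO1 window held 1 match to TGACNNNGC. In the whole 1500 bases CYP1A1 held 10 matches to GCGTG, as many as or more than which were found for 0.655% of the 10845 tested genes with an upstream sequence. CYP1B1 held 7 (4.61% of genes had as many) and TIPARP held 6 (9.26%). The other 3 AHR targets called higher held fewer, with 3 before SLC7A5 (45.4%), 2 before NQO1 (65.7%) and 1 before SERPINB2. TXN, an NRF2 target, held 11 (0.332%), more than CYP1A1. A single GCGTG is no distinction, since 86.6% of genes held at least 1. At least 1 match to TGACNNNGC stood before 4767 of the 10845 genes. Among the 9 NRF2 targets called higher, 7 held one, and FTH1 and SRXN1 held none.

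The overexpressed gene checks the labels. NRG1 (chromosome 8, 31496738 to 32713184) had 157, 164 and 189 counts in the DMSO wells and 115, 106 and 85 in the BaP wells. The 10 wells of NRG1 cells with 1-digit numbers, over all chemicals, ran from 77.7 to 117 CPM, and the 72 such wells of the other populations reached at most 3.95 CPM, or 5 counts. NRG1 itself lay lower in every BaP well than in every DMSO well, at 81.2, 96.2 and 80.4 CPM against 101, 106 and 114. The log2 fold change of -0.33 (SE 0.12) did not pass the threshold (limma adjusted p = 0.299). Counts do not tell transgene from endogenous NRG1 transcripts.

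Totals were 1546988, 1542118 and 1641162 counts in the DMSO wells and 1373908, 1155788 and 1056497 in the BaP wells. Every BaP well was therefore shallower than every DMSO well. Pairs of replicate wells differed by more than sampling noise, with a chi-square per degree of freedom of 1.13 to 1.30 under DMSO and 1.68 to 1.89 under BaP. The DMSO wells stood in plate row B and the BaP wells in row F, in the same 3 columns. The 6-base well barcodes held 1 G or C under DMSO and 5 under BaP. Chemical, plate row and barcode composition cannot be told apart. Of the 12 markers of fibroblasts, immune cells and endothelium, 6 (COL1A2, COL3A1, PTPRC, CD3E, VWF and CDH5) were at 0 in all 6 wells, and the summed level of the 12 ran from 25.2 to 36.9 CPM under DMSO and from 29.3 to 38.8 CPM under BaP. The 8 markers of airway epithelium were all tested and none was called, with KRT5 at 147 to 185 CPM under DMSO and 139 to 182 CPM under BaP. MALAT1, a nuclear RNA, took 1.98% to 2.20% of counts under DMSO and 1.90% to 2.09% under BaP.

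Between the BaP and DMSO wells 100 of 11176 genes differed (0.895%), with 56 higher under BaP (0.501%) and 44 lower (0.394%). Among the called genes, which differed in level between the directions, the rises were larger than the falls. The median log2 fold change was 0.72 among the genes called higher and -0.46 among those called lower, against 0.02 over all genes tested. A log2 fold change above 1 was reached by 20 of the higher genes, and only TBL1XR1, a subunit of the NCoR corepressor complex, fell by as much, with a log2 fold change of -1.03 (SE 0.18). In 97 of the 100 genes the BaP and DMSO wells did not overlap, while HTATIP2, MT2A and RPS23 overlapped. Without a test, wells did not overlap in 13.7% of all genes. The genes called higher had a median mean count of 112 and those called lower of 285, against 10.8 over all genes tested. They also differed in make-up, with a median GC content of 50.5% and a transcript length of 1805.5 nt among the higher, 41.4% and 3128 nt among the lower, and 46.6% and 3332 nt over all genes tested. With trends of level on GC content and length removed from each well, 88 genes were called (41 higher and 47 lower), of which 72 were among the 100. Thinning every well to the smallest total left 62 genes, all of them among the 100. A fit over all groups of the series that had 3 wells with 1-digit numbers left 37, of which 36 were among the 100. That fit held an NRG1 well under the nitrosamine NNK, replicate 2, that differed strongly from its replicates (chi-square per degree of freedom 11.3 and 11.8). DESeq2 called 60, all among the 100, and 21 of the others had a DESeq2 adjusted p above the threshold. The last 19, with a mean count of at most 35.3, were among the 8667 genes to which the DESeq2 filter on low counts gave no adjusted p, and in each of the 19 the unadjusted DESeq2 p was at most 0.0182. CYP1A1, SERPINB2, TIPARP, SQSTM1, GPX2, SRXN1, EREG, ERRFI1, EGR1, FOS, PHLDA1, IL1A, IL1B and ISG15 were of this kind, so DESeq2 gave neither a call nor a loss for them.

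The plot of fold change against mean count shows CYP1A1 and CYP1B1 above all other called genes.

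**Figure D1:**
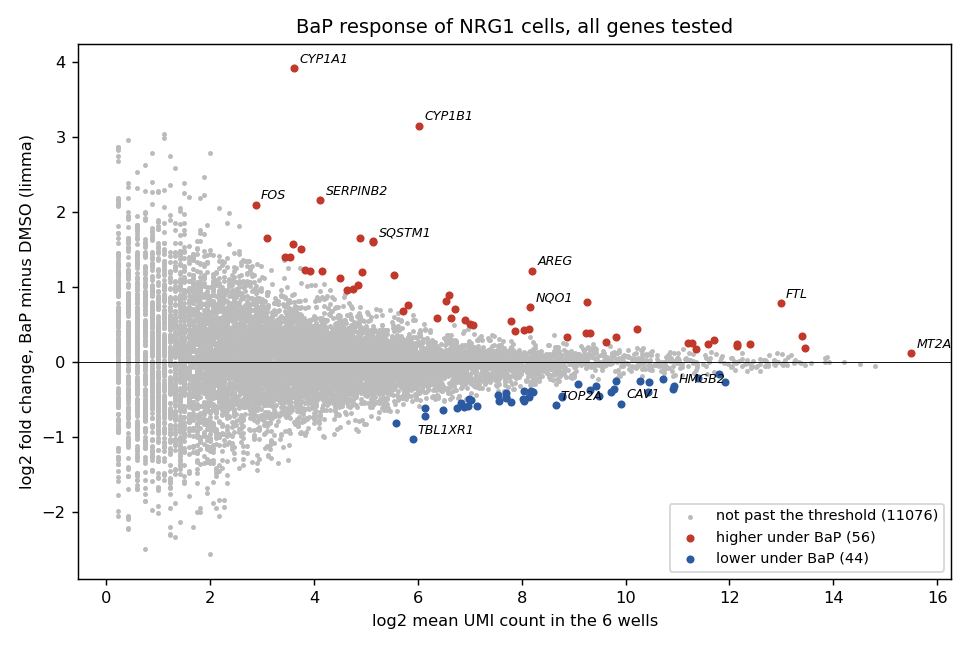
Log2 fold change of BaP minus DMSO in NRG1 cells (limma, vertical axis) against the log2 mean UMI count in the 6 wells (horizontal axis), 1 point per gene tested. The 56 genes called higher (red) and 44 called lower (blue) stand beside the other genes (grey), with CYP1A1 at 3.92 and CYP1B1 at 3.15.

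Targets of AHR gave the largest rises. CYP1A1, the hydroxylase that begins the oxidation of BaP, had 0, 2 and 5 counts in the DMSO wells and 20, 23 and 23 in the BaP wells. CYP1A1 levels were 0, 1.29 and 3.02 CPM under DMSO and 14.1, 20.9 and 21.8 CPM under BaP, with no overlap and all 3 DMSO wells near the floor of detection. The log2 fold change was 3.92 (SE 0.64, limma adjusted p = 3.15e-05), and its size rests on 7 counts in all under DMSO. CYP1B1, which oxidises BaP and oestrogens, was measured more firmly, with 50 counts in all under DMSO and 338 under BaP. CYP1B1 stood at 7.74, 12.3 and 11.5 CPM in the DMSO wells and at 102, 91.7 and 88.0 CPM in the BaP wells. The lowest BaP well lay far above the highest DMSO well, and the log2 fold change was 3.15 (SE 0.22, limma adjusted p = 5.97e-18). Both were given as markers of the exposure by a choice made with these data known, so their rise is no independent evidence.

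Of the 14 members of the AHR list that were tested (of 16), 6 rose and none fell, against 0.501% and 0.394% of all genes. The median log2 fold change of the list was 0.81 against 0.02 over all genes. DESeq2 called 3 of the 6 and gave no adjusted p for the others. Beside the cytochromes, NQO1, a quinone reductase that both AHR and NRF2 control, stood at 158, 164 and 158 CPM under DMSO and at 274, 280 and 241 CPM under BaP. The wells of each group lay close together, and the log2 fold change was 0.73 (SE 0.09, limma adjusted p = 4.31e-08). SERPINB2, an inhibitor of plasminogen activators, went from 6.45, 4.53 and 3.63 CPM to 28.3, 16.3 and 21.8 CPM, a log2 fold change of 2.16 (SE 0.34, limma adjusted p = 1.31e-05). SLC7A5, the light subunit of the LAT1 amino acid transporter, was at 43.9, 53.7 and 51.4 CPM under DMSO and at 126, 83.5 and 69.1 CPM under BaP. Its wells did not overlap but spread widely under BaP, and the log2 fold change was 0.89 (SE 0.15, limma adjusted p = 7.28e-05). TIPARP, an ADP-ribosyltransferase that damps AHR, rose by 0.97 (SE 0.24, limma adjusted p = 0.0174). That call was lost without DMSO replicate 3 (adjusted p = 0.278) and without BaP replicate 2 (0.0712), in a range over all alternatives of 0.00834 to 0.278.

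The receptor and its partner ARNT did not pass the test. AHR had 33 counts in all under DMSO and 34 under BaP, with a log2 fold change of 0.37 (SE 0.36, limma adjusted p = 0.833). The log2 fold change of ARNT was -0.31 (SE 0.31). AHRR, the AHR repressor, had no counts under DMSO and 2 under BaP, too few to test. ALDH3A1, an aldehyde dehydrogenase of the AHR battery, lay higher in every BaP well and did not pass the threshold (limma adjusted p = 0.263).

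**Figure D2:**
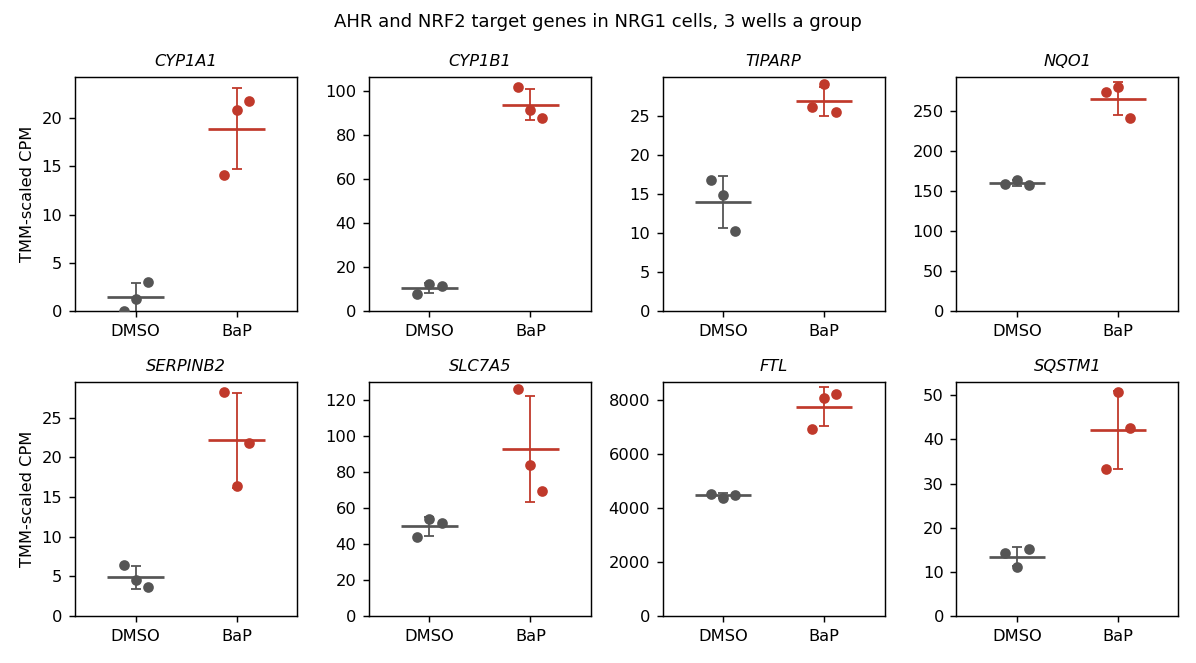
TMM-scaled CPM of 8 genes in the 3 DMSO wells (grey) and 3 BaP wells (red) of NRG1 cells, on axes that start at 0. Points are wells, horizontal lines are means and bars are 1 SD, cut at 0 for CYP1A1, and in each gene every BaP well lies above every DMSO well.

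The enzymes further along the route of BaP were mostly not called. In the list of BaP activation and conjugation, 3 of 19 tested genes rose and none fell, against 0.501% and 0.394% of all genes. Those 3 were CYP1A1, CYP1B1 and NQO1, of which DESeq2 called 2 and gave CYP1A1 no adjusted p. EPHX1, the epoxide hydrolase that makes the BaP diols, had 6 counts in all under DMSO and 2 under BaP. GSTP1, the main glutathione transferase of these cells, stood at 945 to 1065 CPM under DMSO and 1015 to 1145 CPM under BaP, with a log2 fold change of 0.11 (SE 0.06, limma adjusted p = 0.604). Its wells overlapped. AKR1C2, one of the dihydrodiol dehydrogenases, was at 8.39 to 10.9 CPM under DMSO and 14.1 to 19.97 CPM under BaP and did not pass the threshold (limma adjusted p = 0.179).

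Targets of NRF2 rose as well. Of 29 tested (of 32), 9 were higher and none lower, against 0.501% and 0.394% of all genes. The median log2 fold change of the 29 was 0.38. Of them, 14 lay higher in every BaP well than in every DMSO well, against 6.77% of all genes. DESeq2 called 6 of the 9. FTL, the light chain of the iron store ferritin, stood at 4525, 4378 and 4486 CPM under DMSO and at 6943, 8090 and 8238 CPM under BaP. The DMSO wells lay within a narrow band that no BaP well approached, and the log2 fold change was 0.78 (SE 0.04, limma adjusted p = 4.91e-27). FTH1, the heavy chain, went from 328, 322 and 346 CPM to 535, 744 and 494 CPM, a log2 fold change of 0.80 (SE 0.09, limma adjusted p = 1.44e-10). Both ferritin genes have many near-identical copies in the genome, so their levels are uncertain where reads could be split. SQSTM1, the autophagy receptor p62, went from 14.2, 11 and 15.1 CPM to 33.2, 50.8 and 42.6 CPM, a log2 fold change of 1.59 (SE 0.23, limma adjusted p = 1.72e-06). TXNRD1 and TXN, the thioredoxin reductase and its substrate, rose by 0.55 (SE 0.10) and 0.24 (SE 0.04), and PIR, an iron-binding nuclear protein, rose by 0.71 (SE 0.13). GPX2, a glutathione peroxidase, and SRXN1, which repairs peroxiredoxins, rose by 1.12 (SE 0.27) and 1.21 (SE 0.32), with adjusted p-values of 0.0181 and 0.0405. GPX2 was lost without DMSO replicate 1 (0.0892) or 3 (0.203) and without BaP replicate 2 (0.160) or 3 (0.148), and SRXN1 without any 1 of the DMSO wells (0.0697 to 0.272) or BaP replicate 1 (0.541). Their ranges over alternatives were 7.68e-05 to 0.203 and 0.00243 to 0.541. HMOX1, the haem oxygenase often used as a marker of NRF2, had 3 counts in all under DMSO and 1 under BaP and was not tested. NFE2L2 itself overlapped between groups, at 39.9 to 43.2 CPM and 40.7 to 60.04 CPM.

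AREG and EREG, which encode ligands of the ERBB receptors as NRG1 does, were among the genes that rose. AREG, amphiregulin (chromosome 4, 75310853 to 75320722), stood at 128, 140 and 132 CPM under DMSO and at 347, 290 and 291 CPM under BaP. Its groups were far apart, with a log2 fold change of 1.21 (SE 0.09, limma adjusted p = 3.09e-16). EREG, epiregulin, went from 7.10, 5.83 and 6.05 CPM to 19.1, 13.6 and 12.3 CPM, a log2 fold change of 1.23 (SE 0.32, limma adjusted p = 0.0351). ERRFI1, the feedback inhibitor of EGFR kinase, went from 7.10, 3.88 and 4.84 CPM to 21.2, 12.7 and 11.4 CPM, a log2 fold change of 1.51 (SE 0.35, limma adjusted p = 0.00932). In both genes the groups did not overlap and BaP replicate 1 was the highest well. Of 14 tested members of the ERBB list these 3 rose and none fell, against 0.501% and 0.394% of all genes. Yet the median log2 fold change of the list was -0.29, with 8 of the 14 negative. EGFR had 100 counts under DMSO and 99 under BaP, and the log2 fold change of TGFA, a further EGFR ligand, was 0.07 (SE 0.38, limma adjusted p = 0.970). ERBB2 and ERBB3, the receptors that carry the neuregulin signal, had 14 and 23 counts in all under DMSO and 9 and 13 under BaP, and no change was detectable at this depth.

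AREG was called in all 16 alternatives, but EREG in 9 and ERRFI1 in 11 of the 15 that gave them an adjusted p. EREG was lost without DMSO replicates 1, 2 and 3 in turn (adjusted p = 0.0892, 0.154 and 0.191) and without BaP replicate 1 (0.211), and its range over alternatives was 0.0158 to 0.254. ERRFI1 was lost without DMSO replicate 2 (0.0864), DMSO replicate 3 (0.0860) or BaP replicate 1 (0.132), and its range was 0.00190 to 0.132.

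Immediate early genes, which ERK turns on within minutes, moved mostly upward. Of 25 tested, 22 had a positive log2 fold change, and the median of the list was 0.72. Among the 25, 3 were called, all higher, against 0.501% of all genes called higher. DESeq2 gave none of these 3 an adjusted p. In 8 of the 25 every BaP well lay above every DMSO well, against 6.77% of all genes. EGR1, a zinc finger factor, went from 15.5, 14.9 and 9.67 CPM to 44.5, 50.8 and 27.4 CPM, a log2 fold change of 1.61 (SE 0.24, limma adjusted p = 4.63e-06). FOS, a subunit of AP-1, had 10 counts in all under DMSO and 34 under BaP, a log2 fold change of 2.10 (SE 0.48, limma adjusted p = 0.00889). PHLDA1, a pleckstrin-domain protein that ERK induces, had 23 and 47 counts, a log2 fold change of 1.41 (SE 0.35, limma adjusted p = 0.0206). In all 3 genes the BaP wells lay above the DMSO wells. FOS was lost without DMSO replicate 2 (adjusted p = 0.0760) or 3 (0.0867), with a range over alternatives of 0.00221 to 0.0867. PHLDA1 was lost without any 1 of the DMSO wells (0.0758 to 0.158) or BaP replicate 1 (0.0602), with a range of 0.0133 to 0.258. DUSP6, the ERK phosphatase, overlapped between groups at 3.88 to 7.86 CPM and 7.57 to 17.0 CPM.

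Interleukin 1 genes rose with them. IL1A, an alarmin held in the epithelium, was at 10.3, 10.4 and 11.5 CPM under DMSO and at 37.4, 25.4 and 41.6 CPM under BaP. Its log2 fold change was 1.65 (SE 0.25, limma adjusted p = 5.57e-06), with wide separation of the groups. IL1B, a separate gene that encodes interleukin 1 beta, went from 3.23, 4.53 and 6.05 CPM to 12.01, 15.4 and 15.1 CPM. The log2 fold change of IL1B was 1.57 (SE 0.36, limma adjusted p = 0.00683). Its call was lost without DMSO replicate 1 (adjusted p = 0.0892, range over alternatives 0.00290 to 0.0892). All 10 tested members of the cytokine list had a positive log2 fold change, with a median of 0.65. These 2 were called, against 0.501% of all genes called higher, and neither had an adjusted p from DESeq2. IL8, a neutrophil chemokine, had 8 counts in all under DMSO and 10 under BaP.

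**Figure D3:**
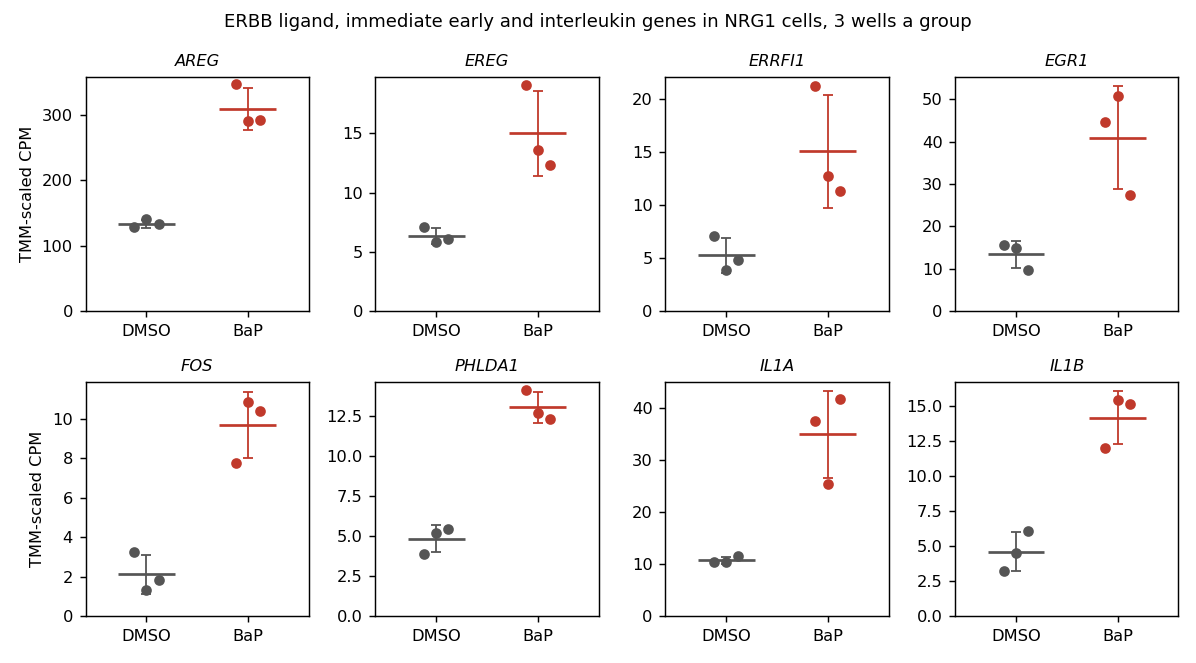
TMM-scaled CPM of 8 ERBB ligand, feedback, immediate early and interleukin genes in the 3 DMSO wells (grey) and 3 BaP wells (red) of NRG1 cells, on axes that start at 0. Points are wells, lines are means and bars are 1 SD. In each gene every BaP well lies above every DMSO well, with AREG at 290 to 347 CPM and IL1A at 25.4 to 41.6 CPM under BaP.

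Among the genes that fell were 3 with roles in mitosis. TOP2A, the topoisomerase that untangles chromosomes, stood at 368, 327 and 319 CPM under DMSO and at 219, 235 and 224 CPM under BaP. The groups did not overlap, and the log2 fold change was -0.58 (SE 0.09, limma adjusted p = 4.63e-06). CENPF, a kinetochore protein, went from 354, 368 and 347 CPM to 261, 253 and 262 CPM, a log2 fold change of -0.46 (SE 0.08, limma adjusted p = 0.000156). CCNB1, the mitotic cyclin B1, went from 992, 981 and 925 CPM to 739, 809 and 899 CPM, a log2 fold change of -0.25 (SE 0.06, limma adjusted p = 0.0188). TOP2A and CENPF were called in all 16 alternatives and CCNB1 in 9. CCNB1 was lost without any 1 of the DMSO wells (0.0644 to 0.200) or BaP replicate 1 (0.167), in a range over alternatives of 0.000835 to 0.552.

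These 3 were the called members of the 29 tested genes of the cell cycle and replication list, none of which rose. The median log2 fold change was -0.20, and 24 of 29 were negative. In 10 of the 29 every BaP well lay below every DMSO well, against 6.93% of all genes. At an unadjusted p below 0.05 there were 12 lower and 0 higher, against 4.23% lower and 4.83% higher over all genes. The summed level of the list ran from 4883 to 5099 CPM under DMSO and from 4132 to 4423 CPM under BaP. Of the licensing factors of replication on the list, MCM2 to MCM5 and CDC6 had log2 fold changes from -0.04 to 0.19. The values of MCM6, MCM7 and CDT1, which also belong to them, are not reported here. No licensing factor on the list was called. In bulk wells fewer cells in mitosis and less RNA per cell cannot be told apart.

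**Figure D4:**
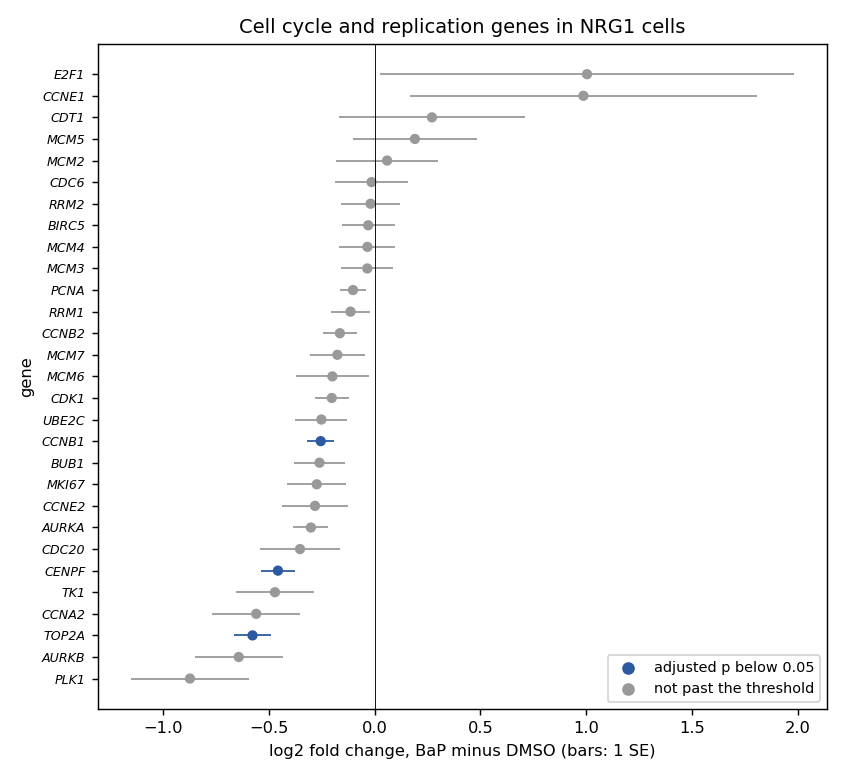
Log2 fold change of BaP minus DMSO in NRG1 cells (limma, horizontal axis, bars 1 SE) for the 29 tested genes of the cell cycle and replication list, ordered by value. Called genes (blue) are TOP2A, CENPF and CCNB1, and 24 of 29 points lie below 0.

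Outside that list, further mitotic and chromatin genes were among those with the smallest adjusted p. NUSAP1, a spindle protein, fell by 0.45 on the log2 scale (SE 0.07), HMGB2, a chromatin protein of dividing cells, by 0.36 (SE 0.05), and TUBA1B and TUBB, the tubulins of the spindle and cytoskeleton, by 0.27 (SE 0.04) and 0.33 (SE 0.05). In the fit over all groups HMGB2, TUBA1B and TUBB were no longer called (adjusted p = 0.125, 0.364 and 0.150). HELLS, a chromatin remodeller of replicating cells, fell by 0.72 (SE 0.16) and HIST1H1A, a linker histone, by 0.61 (SE 0.14). The tubulin, HMGB2 and histone genes belong to families with near-identical copies, so their levels are uncertain. HELLS was lost without DMSO replicate 2 (adjusted p = 0.0596), and HIST1H1A without DMSO replicate 2 (0.0596) or BaP replicate 3 (0.0935), with ranges over alternatives of 0.00154 to 0.0596 and 0.00115 to 0.124. TPR, a protein of the nuclear pore, fell by 0.41 (SE 0.07) and NCL, nucleolin, by 0.41 (SE 0.07). NCL was lost with DESeq2 (adjusted p = 0.344) and in the fit over all groups (0.112).

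Genes of the cell surface and matrix changed in few cases. CAV1, the coat protein of caveolae, stood at 847, 805 and 752 CPM under DMSO and at 566, 506 and 554 CPM under BaP. Its groups did not overlap, and the log2 fold change of -0.56 (SE 0.07, limma adjusted p = 1.20e-08) was called in all 16 alternatives. CAV1 was the sole called member of 24 tested adhesion and matrix genes. MFAP5 and EFEMP1, proteins of elastic fibres, fell by 0.81 (SE 0.20) and 0.65 (SE 0.15) on the log2 scale. MFAP5 was lost without DMSO replicate 3 (adjusted p = 0.105) or BaP replicate 2 (0.223), and EFEMP1 without DMSO replicate 3 (0.0924), with ranges over alternatives of 0.00742 to 0.223 and 0.00154 to 0.0924. S100A6, a calcium-binding protein, rose by 0.35 (SE 0.03, limma adjusted p = 8.28e-14) and FXYD3, a regulator of the sodium pump, by 0.44 (SE 0.07, limma adjusted p = 5.57e-06). Among 19 tested keratinocyte genes S100A8, a subunit of calprotectin, was the one called, with a log2 fold change of 0.50 (SE 0.13, limma adjusted p = 0.0345), in 7 of 16 alternatives. Its call did not hold without any 1 of the DMSO wells (0.0783 to 0.215) or without BaP replicate 2 (0.262) or 3 (0.286), in a range over alternatives of 4.83e-05 to 0.286.

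No change in the genes of the DNA damage response passed the threshold in the main fit at this depth. None of the 22 tested p53 targets was called, and their median log2 fold change was 0.08. The study's text does not describe the state of p53 in this immortalized line. The levels of p53 targets therefore do not tell how much DNA damage was made. CDKN1A, the p21 inhibitor of cyclin-dependent kinases, came nearest, at 9.68, 14.2 and 7.26 CPM under DMSO and 21.2, 17.2 and 19.9 CPM under BaP. Its groups did not overlap, and its log2 fold change of 0.96 (SE 0.28) missed the threshold (limma adjusted p = 0.0781). CDKN1A passed when genes needed a mean count of at least 10. MDM2, the ligase that removes p53, lay lower in every BaP well, with a log2 fold change of -0.28 (SE 0.20, limma adjusted p = 0.736), and GDF15, a secreted p53 target, had 6 and 10 counts. None of the 25 genes for repair and bypass of bulky adducts was called, with a median log2 fold change of 0.00. None of 22 ATF4 and endoplasmic reticulum stress genes was called, with a median of 0.09. In the 24 wells of the NRF2, PIK3CA, GFP and FAT1 cells, 3 p53 targets and 2 repair genes were called higher under BaP. None of either list was lower there, and 4.48% of all genes were called higher. The list medians there were 0.15 and -0.08.

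The remaining lists held few calls, while 0.895% of all genes were called. Among 24 tested interferon-stimulated genes, B2M, the light chain of MHC class I, rose by 0.24 (SE 0.04, limma adjusted p = 7.46e-05, lost at 0.396 in the fit over all groups) and ISG15, a ubiquitin-like modifier, by 0.96 (SE 0.25, limma adjusted p = 0.0309), and ISG15 was called in 8 of the 15 alternatives that gave it an adjusted p. ISG15 was lost without any 1 of the DMSO wells (0.0826 to 0.219) or BaP replicate 1 (0.212), in a range over alternatives of 0.0152 to 0.219. Of 24 sterol and fatty acid genes, SCD, the stearoyl-CoA desaturase, fell by 0.47 (SE 0.08, limma adjusted p = 0.000161). Of 19 glycolysis and hypoxia genes, the glycolytic enzymes TPI1 and ENO1 rose by 0.33 (SE 0.07) and 0.24 (SE 0.05), and LDHA, lactate dehydrogenase, fell by 0.23 (SE 0.06). With GC and length trends removed ENO1 and TPI1 were no longer called (adjusted p = 0.143 and 0.0688), nor in the fit over all groups (0.373 and 0.123). LDHA was lost without DMSO replicate 1 (adjusted p = 0.101) or 3 (0.271), and TPI1 without DMSO replicate 1 (0.0572), with ranges over alternatives of 0.000317 to 0.569 and 0.000114 to 0.123. Of 16 heat shock and metallothionein genes, MT1X, a metal-binding metallothionein, rose by 0.29 (SE 0.04, limma adjusted p = 8.15e-06, lost at 0.190 in the fit over all groups). MT2A, another, rose by 0.12 (SE 0.02) and was lost without DMSO replicate 3 (adjusted p = 0.553, range over alternatives 1.47e-25 to 0.851), and HSP90AA1, a chaperone, fell by 0.16 (SE 0.04) and was called in 4 of 16 alternatives, with losses without DMSO replicates 1, 2 and 3 in turn (0.101, 0.247 and 0.435) and without BaP replicate 3 (0.260) in a range of 0.000261 to 0.594. None of the 5 RNA quality markers and none of the 4 tested markers of other cell types was called.

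Whether this response was particular to NRG1 cells was tested against the mean BaP effect in NRF2, PIK3CA, GFP and FAT1 cells. The limma fit held 30 wells (3 per group), with no well shared between the effects compared. HcRed cells, the study's empty-vector control for overexpression, were not among these populations, here or below. Some of their BaP wells had replicate numbers of more than 1 digit. The BaP effect in NRG1 cells was therefore not tested against that of their own vector control. Of 11306 genes, 1 differed (0.00884%), and 775 had an unadjusted p below 0.05. That gene was FTL, whose BaP effect was 0.77 on the log2 scale in NRG1 cells, and 0.86 in PIK3CA, 0.95 in FAT1, 1.07 in NRF2 and 1.27 in GFP cells. The difference of -0.27 (SE 0.04, limma adjusted p = 3.49e-05) was lost without the GFP cells, at -0.16 (adjusted p = 0.372), and with edgeR (0.0923), with DESeq2 (0.205) and without a filter on low counts (0.200). The effect was positive in all 5 populations and smallest in NRG1 cells.

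FTH1, SLC7A5 and MT1X came next and each missed the threshold, at an adjusted p of 0.0597. SLC7A5 rose by 0.89 on the log2 scale in NRG1 cells, with effects of -0.19 in NRF2, -0.16 in GFP, 0.15 in PIK3CA and 0.41 in FAT1 cells, a difference of 0.84 (SE 0.19). Scaled over all wells, SLC7A5 stood at 43.7 to 53.7 CPM under DMSO and 70.5 to 124 CPM under BaP in NRG1 cells, and at 73.6 to 108 CPM and 71.3 to 76.1 CPM in NRF2 cells, where the groups overlapped. FTH1 rose by 0.80 in NRG1 cells and had effects of 0.21 to 0.52 in the others. MT1X rose by 0.29, with effects of -0.26 in NRF2 and 0.14 to 0.26 in the other 3.

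For the AHR targets no difference between NRG1 cells and the mean of the other populations was shown. The CYP1B1 effect was 3.15 in NRG1 cells and 2.85 to 4.28 in the others, a difference of -0.28 (SE 0.28, limma adjusted p = 0.905), and that of CYP1A1 was 3.93 and 2.64 to 6.11, a difference of -0.51 (SE 0.69, limma adjusted p = 0.945). These standard errors leave room for a difference of either sign. Scaled over all wells, CYP1A1 under BaP ran from 14.0 to 22.2 CPM in NRG1 and 10.8 to 18.5 CPM in PIK3CA cells. It ran from 34.3 to 48.0 CPM in GFP, 46.3 to 75.3 CPM in NRF2 and 88.5 to 98.2 CPM in FAT1 cells. CYP1B1 ran from 89.8 to 101 CPM in NRG1, 33.1 to 48.2 CPM in PIK3CA and 113 to 120 CPM in FAT1 cells. In NRF2 and GFP cells it lay between, at 55.9 to 75.9 CPM and 69.6 to 85.3 CPM. Single populations were not tested against NRG1 cells. AREG rose by 1.21 in NRG1 cells and had effects of 0.56 to 1.15 in the others, and its difference of 0.31 (SE 0.12) did not pass (limma adjusted p = 0.649). The AREG level under DMSO ran from 128 to 140 CPM in NRG1 cells and from 128 to 146 CPM in PIK3CA cells, against 29.8 to 59.3 CPM in GFP, NRF2 and FAT1 cells. The difference in level was not tested.

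**Figure D5:**
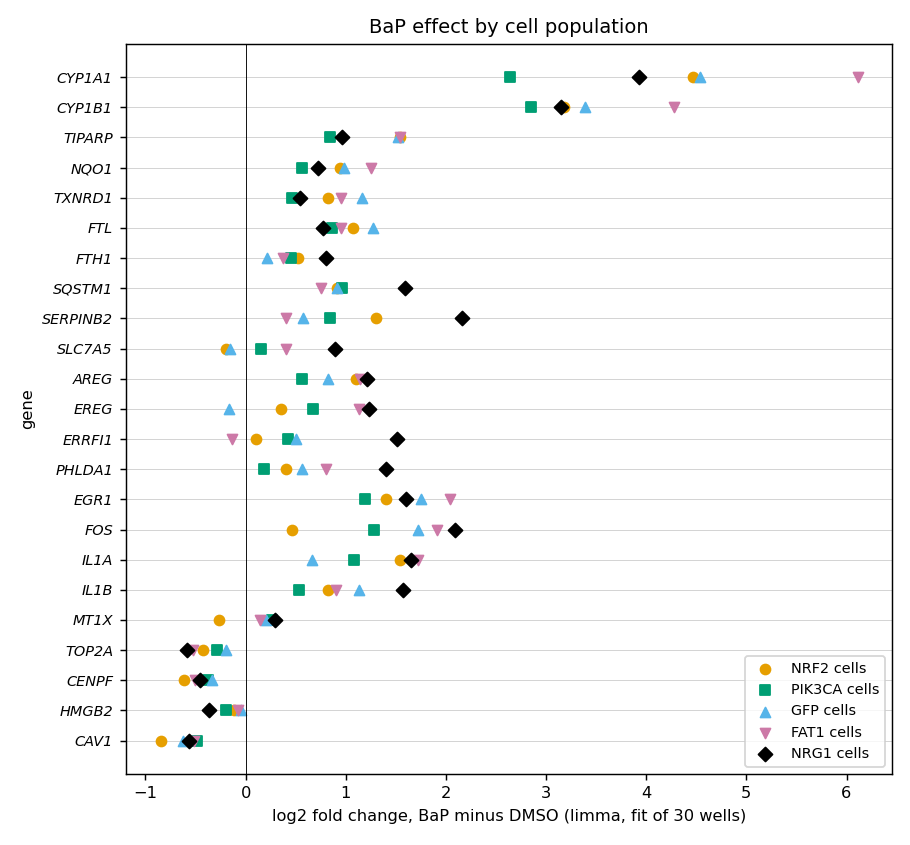
Log2 fold change of BaP minus DMSO in 5 cell populations (limma fit of 30 wells, horizontal axis) for 23 genes named in the text, with NRG1 cells as black diamonds. FTL in NRG1 cells lies lowest of the 5 populations at 0.77, while CYP1B1 at 3.15 lies within the range of 2.85 to 4.28 of the others.

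The genes called in NRG1 cells were then read in wells that had no part in calling them. The plate rows and barcodes of those wells are not reported here. A direction shared between populations therefore does not tell chemical from plate layout. In the 24 wells of the 4 other populations, 951 of 11274 genes were called (8.44%), with 505 higher (4.48%) and 446 lower (3.96%). All 100 genes called in NRG1 cells were tested there. The direction was the same for 99, and 89 were also called in that direction, which is 89.0% of the NRG1 calls and 9.36% of the calls in the other cells. The exception in direction was MT2A, at -0.01. The 11 genes not called there were EREG, ERRFI1, GPX1, ISG15, MGAT4B, MT2A, PHLDA1, PRPF4B, RFC1, S100A8 and SLC7A5. ERRFI1 had a mean effect of 0.22 in the other cells (limma adjusted p = 0.585) against 1.51 in NRG1 cells, but the difference of 1.29 (SE 0.40) did not pass (limma adjusted p = 0.591). None of the 11 was shown to differ between NRG1 cells and the others. Of the listed cell cycle genes 12 fell in the other cells with their 24 wells, and the median log2 fold change of the list was -0.15.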

How the data were processed

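The authors deposited a raw UMI count for each gene in each well and had received these counts already quantified. BWA aln 0.7.10 had aligned reads to hg19 RefSeq transcripts, with each UMI counted once per gene. Groups and replicate numbers came from the sample titles, and 3 wells a side gave 4 residual degrees of freedom. Counts were fitted in R 4.3.3 with limma 3.58.1 (voom), with TMM factors from edgeR 4.0.16. The study likewise used limma with voom, but kept the genes of largest median absolute deviation. That filter was run here only as an alternative. The prior added 63.6 degrees of freedom, so p-values, the very small ones included, rest largely on variance shared between genes. The fit of 30 wells contrasted the BaP effects of populations. Alternatives were edgeR, DESeq2 1.42.0, median-ratio size factors, other filters, thinning, a replicate block, single wells left out, and 1 fit over all groups. GENCODE positions on the same build matched 22350 of 23895 symbols. The scripts were tested on simulated data. Intervals are not given for single wells, since the spread between wells was used.

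The members, gene lists and tests were chosen with earlier results of these data known. Genes were named by a rule: NRG1, CYP1A1 and CYP1B1; the 10 risers and 10 fallers of smallest adjusted p with non-overlapping wells; the 5 largest changes each way at a mean count of at least 10; up to 4 called members per list; and genes past the threshold between populations. Other genes named, TIPARP, SLC7A5, TXNRD1, TXN, PIR, GPX2, SRXN1, MGAT4B and uncalled list members among them, were chosen after their values were seen. Not every gene called is reported here.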

Additional observations from a re-analysis of the deposited data

Results flagged for a closer look

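FTL differed between populations in the size of its BaP effect, by -0.27 on the log2 scale (limma adjusted p = 3.49e-05) between NRG1 cells and the mean of the other 4. The call depended on the GFP cells, without which the difference was -0.16 (adjusted p = 0.372).

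NRG1 wells under the other 2 chemicals, which enter no comparison of the report, also held CYP1A1 and CYP1B1 counts above the DMSO level. Scaled over all wells, CYP1A1 averaged 15.4 CPM under cigarette smoke condensate (CSC, 24 µg/ml), with 12.4 to 18.4 CPM in 3 wells (2 of them with 2-digit replicate numbers), and 6.48 CPM under the nitrosamine NNK (490 µM), with 4.25, 7.24 and 7.97 CPM, against 0 to 3.09 CPM under DMSO. CYP1B1 averaged 79.6 CPM under CSC, with 73.2 to 85.1 CPM, and 55.5 CPM under NNK, with 38.9, 82.5 and 45.1 CPM, against 7.71 to 12.3 CPM under DMSO. NNK replicate 2 stood apart from the other wells of its group, with a chi-square per degree of freedom of 11.3 and 11.8, and the other 2 NNK wells alone also lay above every DMSO well for both genes. In CYP1B1 the 3 CSC wells lay below the 3 BaP wells, at 89.8 to 101 CPM, and in CYP1A1 they overlapped. The cytochromes were not alone in this. AREG ran from 407 to 448 CPM under CSC and 290 to 316 CPM under NNK, against 128 to 140 CPM under DMSO. FTL ran from 10156 to 11338 CPM under CSC, above the BaP wells at 6871 to 8405 CPM. Under NNK, at 3080 to 5804 CPM, FTL overlapped the DMSO wells at 4374 to 4590 CPM. These chemicals share the DMSO wells with the BaP comparison, and the differences were not tested.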

How the results depend on the processing

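The alternatives gave 856 values for 55 effects, in which FTL entered with both its fold change and its difference between populations. Of these values, 747 changed neither direction nor call, 106 lost the call, 1 gained it and 2 changed sign. CDKN1A passed when genes needed a mean count of at least 10. AHR and EGFR, neither of them called, changed sign without BaP replicate 1, to -0.00482 and -0.0470, and without single wells they reached 0.72 (AHR without BaP replicate 3) and 0.72 (EGFR without BaP replicate 2). The number of genes past the threshold, 100, was 60 with DESeq2, 62 with wells thinned to the smallest total and 37 in 1 fit over all groups, of which 60, 62 and 36 were among the 100. That fit also lost the calls of B2M, HMGB2, MT1X, NCL, TUBA1B and TUBB (adjusted p from 0.112 to 0.396), which no left-out well did. It included NRG1 cells under NNK, whose replicate 2 stood apart from the other wells of its group. Scaled over all wells, that well held 1857 CPM of B2M, against 3467 and 3594 CPM in the other NNK wells. HMGB2, MT1X, TUBA1B and TUBB were also lower in it, and NCL was higher. The part of this well in the losses was not tested. Of the 100 genes DESeq2 lost 21 and gave 19 no adjusted p, and the genes described above that it lost were CCNB1, HSP90AA1, MFAP5, MT2A, NCL, PRPF4B, RPS23 and S100A8. Without single wells the count ran from 62 to 132, with 62 without DMSO replicate 1 and 66 without DMSO replicate 3. For the difference between populations, 1 gene became 0 with DESeq2 (348 at an unadjusted p below 0.05) and without a filter on low counts (1304), 2 with edgeR and with thinning, 4 with a mean count of at least 10, 5 with GC and length trends removed, 4 without the PIK3CA cells and 3 without the FAT1 cells. Without single NRG1 wells it ran from 1 to 6, the highest without BaP replicate 3, with 3 without DMSO replicate 3 and 2 without BaP replicate 1 or 2. The removal of trends and the BaP effect over the other 4 populations were added after seeing the data. Those 951 genes became 1019 with edgeR, 1010 with median-ratio size factors and 1021 with the replicate block. Beyond fewer wells in the fits that left one out, the cause of these changes was not tested.

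With the replicate number as a block, 110 genes were past the threshold in NRG1 cells and 9 in the difference between populations. Same-numbered BaP and DMSO wells did not deviate together, with correlations across 5799 genes of -0.018, -0.017 and 0.008, so the numbers do not pair the wells. BaP wells had 1056497 to 1373908 counts, and a gene near 1 count per well could be called only for a large change.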
